A study of Mus musculus with 6 samples.

Results

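The genes described here encode kinesins, the motor proteins that walk along microtubules, and the light chains that tie one kinesin class to its cargo. They were chosen by name: every gene of the deposited table called Kif followed by a digit, except Kif-binding proteins, the light chain genes Klc1 to Klc4, and Kifc1, a mitotic motor that the name pattern alone would miss. This gave 42 of the 17971 genes in the table. They were split by textbook role into 19 transport genes (15 motors and 4 light chains), 12 mitotic motors and 11 others.

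Gene expression was measured by RNA-seq in dorsal root ganglia, the clusters of sensory neurons and glia beside the spinal cord, taken from mouse embryos at E13.5. The 3 cKO libraries came from Wnt1-cre+/-;Ybx1fl/fl embryos, in which Cre recombinase under Wnt1 control deletes both floxed copies of Ybx1 in the neural crest lineage that forms the neurons and glia of these ganglia. The 3 Ctrl libraries came from Ybx1fl/fl littermates, which carry the same floxed copies and no Cre. All samples are described as male biological replicates. The sources used here do not say whether a library held the ganglia of 1 embryo or of several. Cre was present in every cKO library and in no Ctrl library, so an effect of Cre itself and the loss of Ybx1 cannot be told apart. Ybx1 itself is a cold-shock protein with roles in the storage, stability and translation of mRNA.

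Kinesins use ATP to move, most of them toward the plus ends of microtubules. In an axon those ends point away from the cell body, so transport kinesins carry vesicles, mitochondria and cytoskeletal proteins outward to the growing tip. Sensory neurons depend on them heavily, since their axons are among the longest in the body and are still growing at this stage. Other kinesins act in dividing cells, where they build the spindle, move chromosomes or complete cell division, and some have left motility behind and act in signalling or at cilia.

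Library depth was 16464264 to 17446385 estimated counts. Ybx1 (chromosome 4, 119277327 to 119296265, minus strand; coordinates here are those of RefSeq on GRCm38.p6) stood at 137, 122 and 108 normalised CPM (counts scaled to library size with TMM factors) in cKO, against 927, 809 and 817 CPM in Ctrl, so every library went with its label. The counts cover the whole gene, and cells outside the neural crest lineage keep it. Markers of sensory neurons and of Schwann and satellite glia, the tissue's own cells, were all detected. The libraries numbered 1 stood apart: the 42 kinesin genes took 0.544% of counts in cKO replicate 1 and 0.580% in Ctrl replicate 1, but 0.627% to 0.648% in the other 4. Summed erythroid marker TPM (a relative abundance corrected for transcript length) was 45857 in cKO replicate 1, against 12196 to 21580 in the other 5. Same-numbered libraries deviated together, so each test is also given with the replicate number as a block where that changes a call.

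Transport genes dominated the kinesin transcripts of the ganglia. Summed TPM of the 19 transport genes was 1630, 2079 and 2118 in cKO and 1824, 2127 and 2078 in Ctrl. The 12 mitotic genes together gave 151, 145 and 159 TPM in cKO and 138, 134 and 142 TPM in Ctrl. The transport sums of the groups overlapped, and every cKO mitotic sum lay above every Ctrl one. In bulk ganglia fewer cells of a type and less RNA per cell cannot be told apart.

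The highest level was that of Klc1, a light chain of kinesin-1, with 603, 741 and 730 TPM in cKO and 660, 710 and 680 TPM in Ctrl. Motors used widely for axonal transport followed it. Over all 6 libraries Kif5a averaged 240 TPM, Kif5c 186 TPM, Kif1a 164 TPM and Kif1b 157 TPM. Neighbours in this order overlapped across libraries: in cKO Kif5a averaged 216 ± 45.1 TPM, Kif5c 190 ± 27.6 TPM, Kif1a 159 ± 33.9 TPM and Kif1b 156 ± 29.3 TPM (SD, n = 3). Then came the light chain Klc2 (99.6 TPM), the kinesin-2 motors Kif3a (80.6 TPM) and Kif3c (77.0 TPM), Kif21a (65.9 TPM), the widely expressed kinesin-1 motor Kif5b (48.3 TPM) and Kif3b (36.8 TPM). The remaining transport genes ranged from 28.6 TPM for Kif13b down to 0.97 TPM for Kif17.

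**Figure D1:**
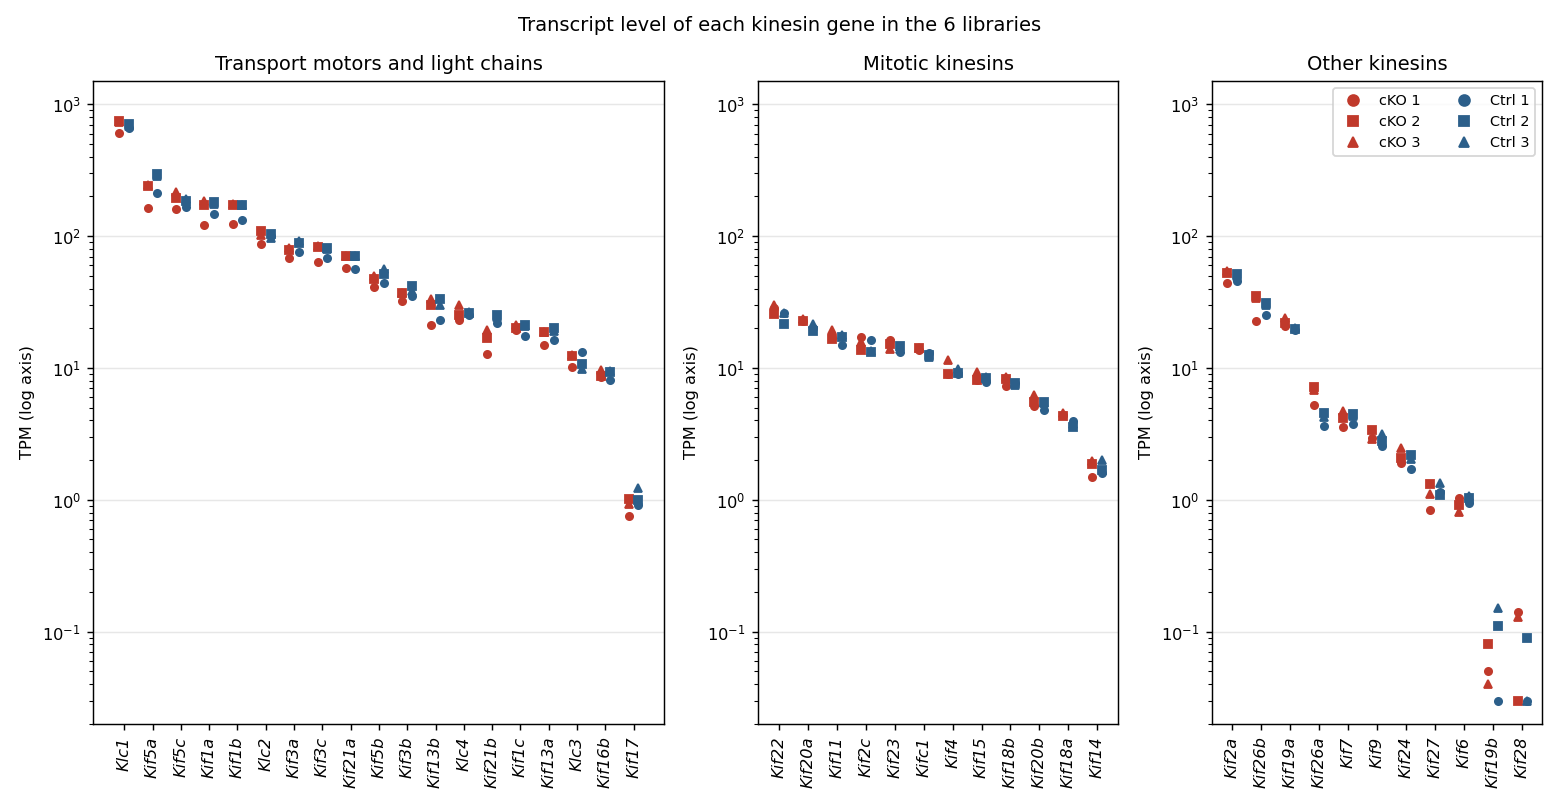
Level of each of the 42 genes in every library, in TPM on a log axis (cKO red on the left of each gene, Ctrl blue on the right, marker shape for the replicate number). Klc1 lies highest at 603 to 741 TPM, the mitotic genes average between 1.77 TPM (Kif14) and 26.3 TPM (Kif22), and Kif19b and Kif28 are near 0.

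Of the 42 genes, 40 had enough counts to be tested. Kif19b and Kif28 had too few counts. In the fit across all genes, 2 of the 40 passed at an edgeR adjusted p under 0.05: Kif26a was higher and Kif21b lower in cKO. Over all 14338 genes tested 0.481% passed. With the replicate block 4 of the 40 passed, the same 2 and also Kif5a and Kif3a, both lower, against 5.33% of all genes in that fit. The median log2 fold change of the 40 genes was 0.01, and that of all genes 0.004; 35 of the 40 lay within 0.2 of 0 on the log2 scale.

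**Figure D2:**
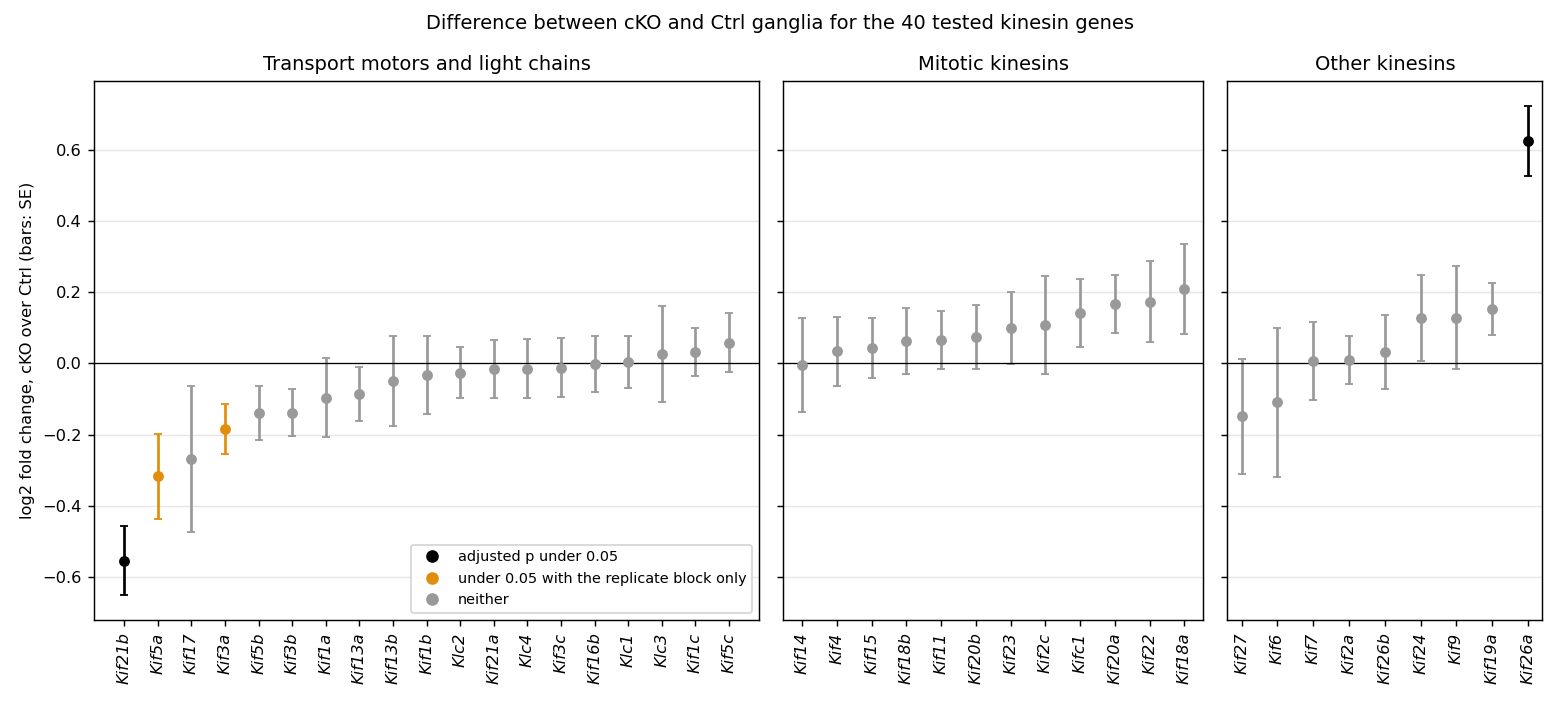
Log2 fold change of each tested gene, cKO over Ctrl, with its SE, ordered within the 3 role groups. Kif21b (-0.55) and Kif26a (0.62) passed the test (black), Kif5a (-0.32) and Kif3a (-0.18) passed with the replicate block only (orange), and the rest did not pass (grey).

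Kinesin-1, the motor of fast axonal transport, is built from a pair of heavy chains of the Kif5 genes and a pair of light chains. Kif5a, the neuron-specific heavy chain that also carries neurofilament proteins (chromosome 10, 127225695 to 127266348, minus strand), stood at 587, 760 and 776 CPM in cKO, against 757, 954 and 934 CPM in Ctrl. The groups overlapped, because Ctrl replicate 1 lay just below cKO replicates 2 and 3; within each replicate number cKO was the lower, with log2 ratios of -0.37, -0.33 and -0.27. The log2 fold change was -0.32 (SE 0.12) with an edgeR adjusted p of 0.346, and with the replicate block it was -0.32 (SE 0.04) with an adjusted p of 0.000484.

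Kif5c, the other mainly neuronal heavy chain, had 643, 701 and 768 CPM in cKO and 655, 670 and 703 CPM in Ctrl, overlapping groups. Its log2 fold change was 0.06 (SE 0.08, edgeR adjusted p 0.871; 0.556 with the block). Kif5b, the heavy chain found in most cells, was lower in cKO in each number, with 145, 148 and 154 CPM in cKO against 151, 163 and 179 CPM in Ctrl. It did not pass (log2 fold change -0.14, SE 0.08, edgeR adjusted p 0.573; 0.142 with the block).

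The make-up of the Kif5 transcripts was compared as shares, which do not depend on how a library was scaled. Kif5a gave 44.8%, 49.4% and 48.1% of the summed TPM of the 3 genes in cKO, against 50.4%, 55.5% and 53.6% in Ctrl. Kif5c gave 43.9%, 40.7% and 42.2% in cKO, against 39.2%, 34.8% and 35.9% in Ctrl. Neither set of shares overlapped between groups. The share of Kif5a was 5.72 percentage points lower in cKO and that of Kif5c 5.60 points higher. Each had an exact two-sided permutation p of 0.1, the smallest that 3 against 3 unpaired libraries allow. The permutations of shares, here and below, did not keep libraries of equal replicate number together. Adjusted over the 17 shares compared, that p is 0.213, here and for each share below with a p of 0.1. Shares within a subfamily add to the whole, so they show unequal change and not which gene changed.

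The 4 light chain genes had log2 fold changes near 0. Klc1 had 0.004 (SE 0.07), Klc2 -0.03 (SE 0.07), Klc3 0.02 (SE 0.13) and Klc4 -0.01 (SE 0.08). The lowest edgeR adjusted p was 0.942 without the block and 0.838 with it. In CPM, Klc1 stood at 780, 857 and 842 in cKO and 835, 834 and 804 in Ctrl, with no consistent order within the numbers. Klc1 gave 83.3% to 83.6% of the summed light chain TPM in cKO and 82.7% to 83.6% in Ctrl.

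Kinesin-2 carries cargo along axons and into cilia, as a trimer of Kif3a, Kif3b or Kif3c, and the accessory subunit Kifap3. Kif3a (chromosome 11, 53565701 to 53604248, plus strand) had 214, 223 and 227 CPM in cKO, against 235, 253 and 266 CPM in Ctrl, and the groups did not overlap. Its log2 fold change was -0.18 (SE 0.07, edgeR adjusted p 0.367), and it passed with the replicate block (adjusted p 0.0304). That call was lost in the blocked fit with library totals as scaling (adjusted p 0.0582), and without the libraries numbered 2 (0.297) or 3 (0.0893).

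Of its partners, Kif3b and Kifap3 were also lower in every number. Kif3b had 104, 107 and 107 CPM in cKO against 112, 123 and 114 CPM in Ctrl, also without overlap, but did not pass (log2 fold change -0.14, SE 0.07, edgeR adjusted p 0.497; 0.147 with the block). Kifap3, which is outside the name rule, had 230, 238 and 244 CPM in cKO against 252, 261 and 290 CPM in Ctrl, and passed with the block only (log2 fold change -0.17, edgeR adjusted p 0.431; 0.0453 with the block). Kif3c, which pairs with Kif3a in neurons, had 253, 297 and 301 CPM in cKO and 270, 295 and 293 CPM in Ctrl, with a log2 fold change of -0.01 ± 0.08 (SE, with adjusted p by edgeR 0.978). Kif3a gave 40.4% ± 1.09 of the summed Kif3 TPM in cKO and 42.5% ± 1.02 in Ctrl, and Kif3c 40.8% ± 1.77 in cKO and 38.3% ± 0.20 in Ctrl (SD, n = 3; exact two-sided permutation p 0.1 for each, the smallest possible). Kif17, a kinesin-2 that works as a homodimer, was barely detected, with 27 to 31 counts in cKO and 31 to 36 counts in Ctrl (log2 fold change -0.27 ± 0.21, SE; edgeR, adjusted p 0.727).

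Kif21b gave the largest fall of the 40 genes. It is a kinesin-4 motor of neurons that transports cargo in axons and dendrites and limits microtubule growth (chromosome 1, 136131390 to 136178001, plus strand). It had 68.8, 81.5 and 93.0 CPM in cKO, against 115, 123 and 119 CPM in Ctrl, or means of 81.1 ± 12.1 and 119 ± 4.30 CPM (SD, n = 3). All 3 cKO libraries lay below all 3 Ctrl libraries. The level in cKO was 31.9% lower, a log2 fold change of -0.55 ± 0.10 (SE, with adjusted p by edgeR 0.0342).

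The size of the Kif21b difference was not even across the numbers, with log2 ratios of -0.74, -0.60 and -0.36 for numbers 1, 2 and 3. With the replicate block the adjusted p was 0.000273. In the fit without the block the call was lost without cKO replicate 2 (edgeR adjusted p 0.162), Ctrl replicate 2 (0.167) or Ctrl replicate 3 (0.146), and with library totals as scaling (0.0515). Its close relative Kif21a, a growth cone motor, had 207, 229 and 228 CPM in cKO and 202, 236 and 234 CPM in Ctrl, and a log2 fold change of -0.02 ± 0.08 (SE, with adjusted p by edgeR 0.969). Kif21b gave 18.3%, 19.4% and 21.7% of the summed TPM of the pair in cKO, against 27.9%, 26.2% and 25.7% in Ctrl, groups that did not overlap (exact two-sided permutation p 0.1, the smallest possible).

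**Figure D3:**
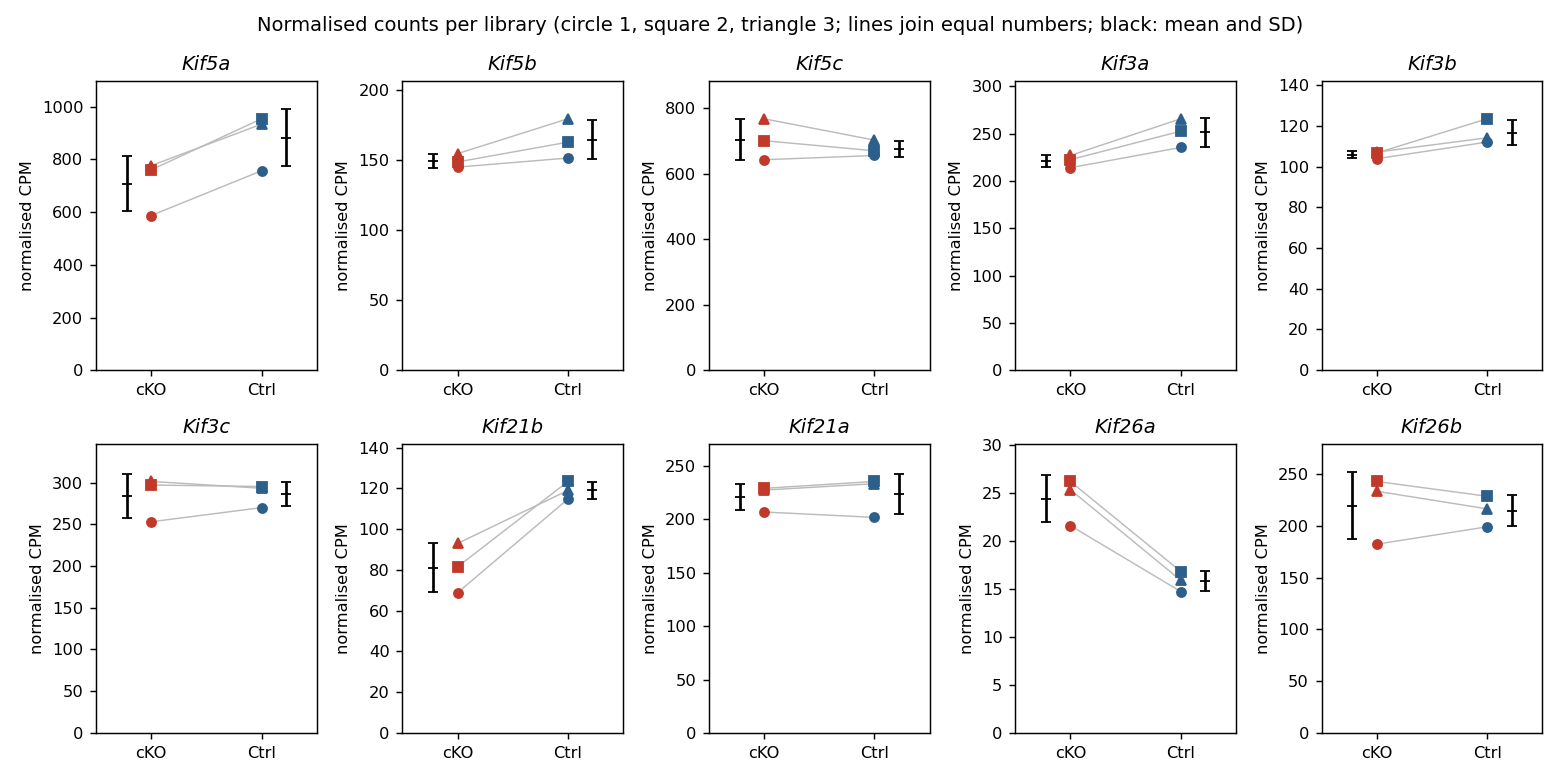
Normalised CPM of the Kif5, Kif3, Kif21 and Kif26 genes in each library, cKO (red) left of Ctrl (blue), with lines joining libraries of equal number and the mean and SD in black; each axis starts at 0. Kif21b, Kif5a and Kif3a are lower and Kif26a higher in cKO in all 3 numbers, while Kif5c, Kif3c, Kif21a and Kif26b differ in sign between numbers.

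**Figure D4:**
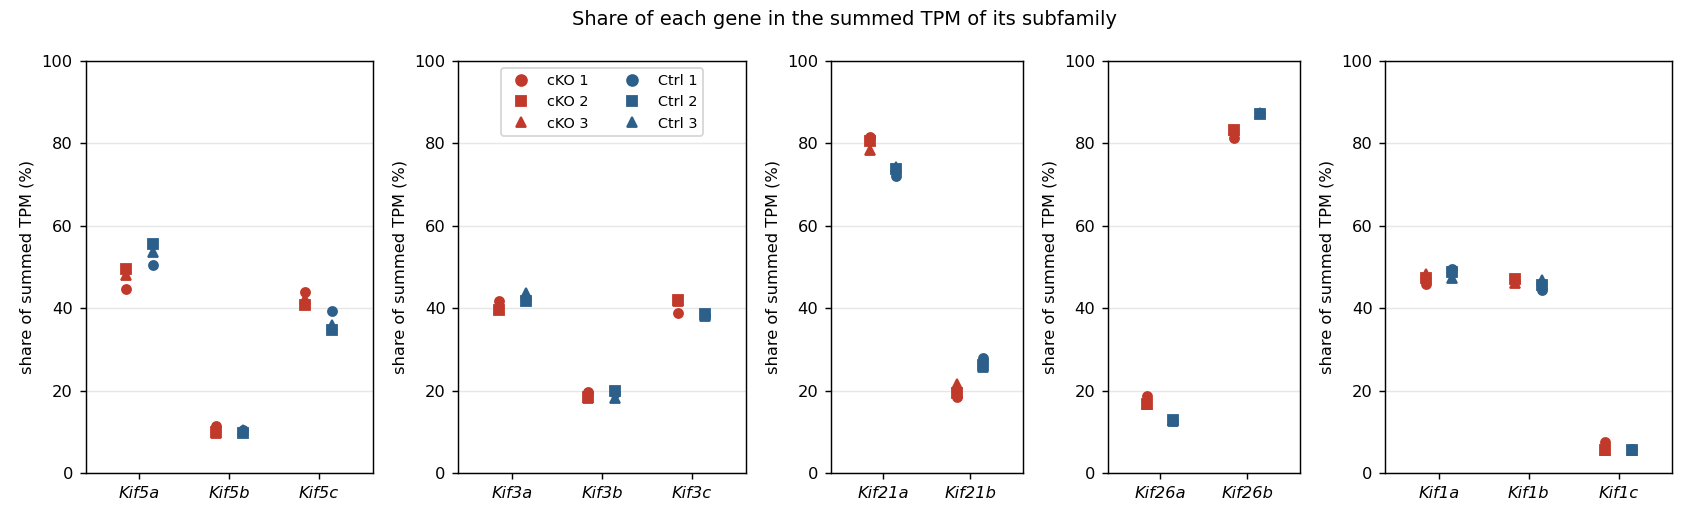
Share of each gene in the summed TPM of its subfamily, in percent, for every library (cKO red, left; Ctrl blue, right). The groups do not overlap for Kif5a, Kif5c, Kif3a, Kif3c and the Kif21 and Kif26 pairs, and overlap for Kif5b, Kif3b, Kif1a, Kif1b and Kif1c. The gap is narrow for Kif3a (41.6% in cKO replicate 1, 41.7% in Ctrl replicate 2) and for Kif3c (38.8% in cKO replicate 1, 38.5% in Ctrl replicate 2).

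The kinesin-3 motors, which move vesicles and endosomes, did not pass in either fit, and none had an edgeR p under 0.05 before adjustment. Kif1a, the carrier of synaptic vesicle precursors, had 589, 753 and 803 CPM in cKO and 704, 811 and 778 CPM in Ctrl. Its log2 fold change was -0.10 (SE 0.11, edgeR adjusted p 0.839; 0.301 with the block). Its ratio differed between the numbers, at -0.26, -0.11 and 0.05, and in the blocked fit without the libraries numbered 3 it passed (log2 fold change -0.18, adjusted p 0.0458). Kif1b, which carries mitochondria and synaptic vesicle precursors, gave a log2 fold change of -0.03 ± 0.11 (SE), Kif1c, of vesicle traffic in many cell types, 0.03 (SE 0.07), the endosome and vesicle motors Kif13a and Kif13b -0.09 (SE 0.08) and -0.05 (SE 0.13), and the endosome motor Kif16b -0.002 (SE 0.08).

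As a group, 15 of the 19 transport genes had negative log2 fold changes and 4 positive ones, where 51.4% of all genes were positive. The median was -0.03, against 0.004 over all genes. Without the block Kif21b was the only one of the 19 called, where 0.37% of all genes tested were called lower and 0.112% higher. With the block 3 of the 19 were called lower and 0 higher, against 3.56% and 1.76% of all genes. Groups did not overlap for 4 of the 19, all lower in cKO (Kif3a, Kif3b, Kif17 and Kif21b), against 8.77% of all genes lower and 7.83% higher. In 8 of the 19 (these 4, Kif5a, Kif5b, Kif1b and Kif13a) the ratio was below 0 in all 3 numbers and in none above 0 in all 3, against 20.3% and 19.6% of all genes. The transport median of the log2 ratios was -0.11, -0.07 and 0.02 in numbers 1, 2 and 3. The median log2 fold change was 0.02 when cKO replicate 1 was left out, -0.10 when cKO replicate 3 was, and -0.12 when Ctrl replicate 1 was.

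**Figure D5:**
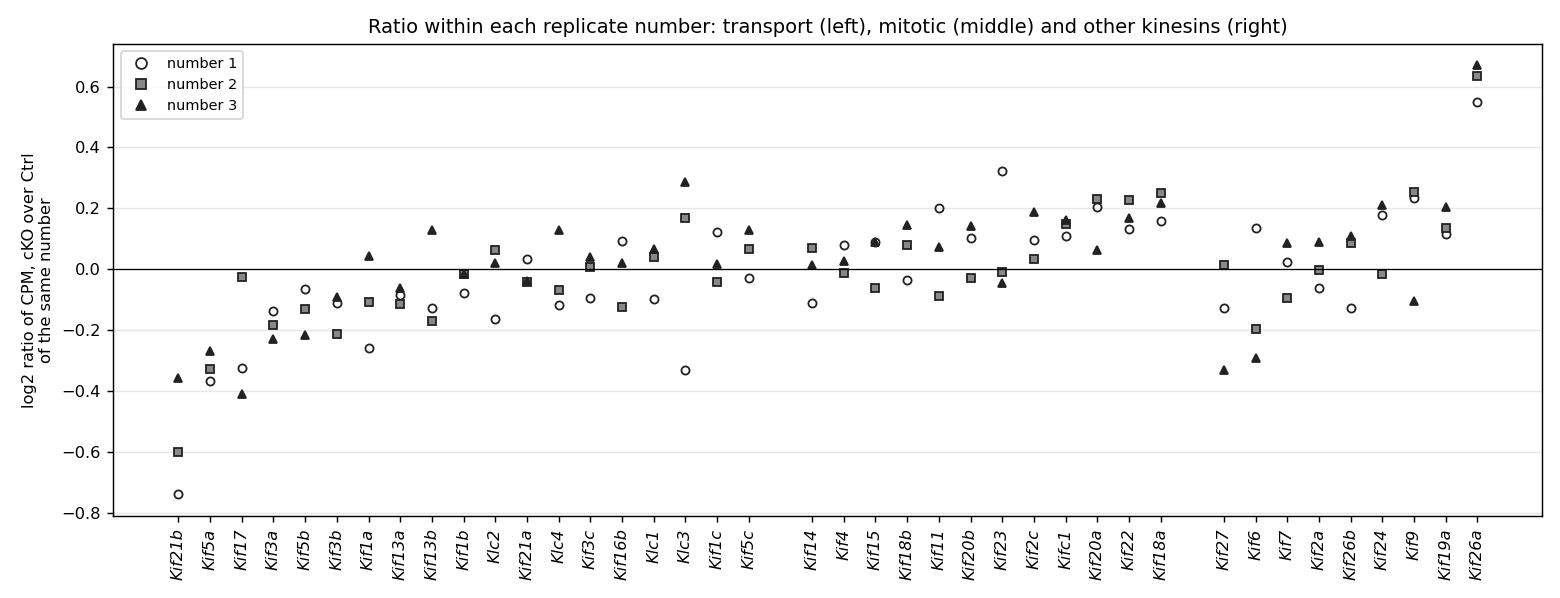
Log2 ratio of CPM, cKO over the Ctrl library of the same number, for the 40 tested genes (number 1 open circles, 2 grey squares, 3 black triangles). The points of Kif21b, Kif5a and Kif3a all lie below 0, those of Kif26a between 0.55 and 0.67, and those of Klc3 spread from -0.33 to 0.29.

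Kif26a, the gene that rose, is an atypical member. Its protein binds microtubules without ATPase activity and in mouse enteric neurons restrains signalling by the receptor Ret. The gene lies on chromosome 12, 112143974 to 112181747, plus strand. It had 21.6, 26.2 and 25.3 CPM in cKO, against 14.7, 16.8 and 15.9 CPM in Ctrl, and every cKO library lay above every Ctrl library. The level was 1.54-fold higher in cKO, a log2 fold change of 0.62 ± 0.10 (SE, with adjusted p by edgeR 0.0196; 0.000232 with the replicate block). The ratio was alike in the 3 numbers, at 0.55, 0.64 and 0.67 on the log2 scale. Without the block the call was lost without cKO replicate 2 (edgeR adjusted p 0.112), cKO replicate 3 (0.0723), Ctrl replicate 2 (0.0668) or Ctrl replicate 3 (0.109).

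Kif26a remained a gene of low level, at 6.39 ± 1.02 TPM in cKO and 4.16 ± 0.45 TPM in Ctrl (SD, n = 3). Its relative Kif26b, which acts in cell adhesion and migration during development, stood at 30.7 ± 6.96 TPM in cKO and 28.7 ± 3.03 TPM in Ctrl. It had 182, 243 and 234 CPM in cKO and 199, 229 and 217 CPM in Ctrl, overlapping groups, and did not pass (log2 fold change 0.03, SE 0.10, edgeR adjusted p 0.948). The share of Kif26a in the summed TPM of the pair was 18.7%, 16.8% and 16.6% in cKO, against 12.7%, 12.8% and 12.5% in Ctrl, without overlap (exact two-sided permutation p 0.1, the smallest possible).

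The 250 bases before the start of Kif26a are printed, since Ybx1 was first known as a protein that binds the inverted CCAAT box of promoters. Of the kinesin genes called in either fit, only Kif26a had a window outside every gene of GENCODE M21. The sequence is from RefSeq on GRCm38.p6, chr12:112145958-112146207, plus strand, 5′ to 3′. It lies inside the RefSeq gene, whose annotation also has an earlier start, and just upstream of the GENCODE M21 gene.
Kif26a: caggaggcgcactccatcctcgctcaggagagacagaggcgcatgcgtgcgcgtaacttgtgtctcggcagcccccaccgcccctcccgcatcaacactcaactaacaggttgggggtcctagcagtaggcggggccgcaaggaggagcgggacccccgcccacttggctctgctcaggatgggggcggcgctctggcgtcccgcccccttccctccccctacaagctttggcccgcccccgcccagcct
It holds neither CCAAT nor its reverse complement ATTGG. Of the 32851 windows of this length in the same table, 33.8% hold one on either strand. The window of Kif3a, called lower with the replicate block, holds one too and is not printed because it overlaps a GENCODE gene. No window was available for Kif5a or Kif21b. No statement about binding follows from a match or from its absence.

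The other 8 tested genes of this group did not pass. The microtubule-shortening kinesin Kif2a had 94.0, 101 and 105 CPM in cKO and 98.0, 101 and 98.8 CPM in Ctrl, a log2 fold change of 0.01 (SE 0.07). Kif19a, which sets the length of motile cilia, had 39.5, 37.4 and 40.9 CPM in cKO against 36.4, 34.0 and 35.5 CPM in Ctrl. Its groups did not overlap, with a log2 fold change of 0.15 ± 0.07 (SE, with adjusted p by edgeR 0.488; 0.182 with the block). Kif7, a regulator of Hedgehog signalling in the cilium, gave 0.01 ± 0.11 (SE), and Kif9, Kif24, Kif27 and Kif6, which all have roles at cilia or centrioles, ranged from -0.15 for Kif27 to 0.13 for Kif9.

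No mitotic kinesin passed the test in either fit. The log2 fold change was positive for 11 of the 12, and their median was 0.09; among all genes 51.4% were positive. Kif22, a chromosome-arm motor, had 30.6, 24.6 and 29.0 CPM in cKO and 27.9, 21.0 and 25.8 CPM in Ctrl, overlapping groups. Its log2 fold change was 0.17 (SE 0.11, edgeR adjusted p 0.663; 0.163 with the block).

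Kif20a, needed for cytokinesis, had 44.2, 39.6 and 40.4 CPM in cKO against 38.3, 33.7 and 38.6 CPM in Ctrl, and its groups did not overlap. Its log2 fold change was 0.17 (SE 0.08, edgeR adjusted p 0.513; 0.153 with the block). The spindle motor Kif11 had 46.9, 40.7 and 47.8 CPM in cKO and 40.9, 43.2 and 45.4 CPM in Ctrl, a log2 fold change of 0.06 (SE 0.08). The highest value was that of Kif18a, which dampens chromosome movement (0.21, SE 0.13), and the lowest that of Kif14, of cytokinesis (-0.01, SE 0.13).

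Between these lay the minus-end spindle motor Kifc1 (0.14, SE 0.10), the microtubule-shortening Kif2c (0.11, SE 0.14), Kif23 of the central spindle (0.10, SE 0.10) and Kif20b, also of cytokinesis (0.07, SE 0.09). Kif18b, a regulator of astral microtubules, had 0.06 (SE 0.09), Kif15, a second spindle motor, 0.04 (SE 0.08) and the chromosome motor Kif4 0.03 (SE 0.10). None of the 12 had an edgeR p under 0.05 before adjustment without the block, and 2 did with it, Kif22 and Kif20a. Of all 14338 genes tested, 1538 had such a p without the block and 2680 with it. None of the 12 passed after adjustment in either fit, with DESeq2 or with limma-voom. In 5 of the 12 the ratio was above 0 in all 3 numbers and in none below 0 in all 3, against 19.6% and 20.3% of all genes. The transport and mitotic medians were not tested against each other.

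The promoters of mitotic kinesins are shown because CCAAT boxes and the TTTGAA element are textbook features of genes expressed in mitosis. The 2 printed are those of the most highly expressed mitotic genes whose window lies outside every gene of GENCODE M21, from RefSeq on GRCm38.p6, 5′ to 3′; capitals mark CCAAT or TTTGAA on either strand (ATTGG and TTCAAA are their reverse complements). Kif11 lies at chr19:37376132-37376381 on the plus strand and Kif23 at chr9:61946800-61947049 on the minus strand.
Kif11: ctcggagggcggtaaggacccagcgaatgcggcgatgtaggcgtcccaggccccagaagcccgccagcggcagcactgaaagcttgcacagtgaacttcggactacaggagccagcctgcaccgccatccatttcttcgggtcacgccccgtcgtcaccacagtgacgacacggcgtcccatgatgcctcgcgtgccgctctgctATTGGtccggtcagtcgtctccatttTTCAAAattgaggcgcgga
Kif23: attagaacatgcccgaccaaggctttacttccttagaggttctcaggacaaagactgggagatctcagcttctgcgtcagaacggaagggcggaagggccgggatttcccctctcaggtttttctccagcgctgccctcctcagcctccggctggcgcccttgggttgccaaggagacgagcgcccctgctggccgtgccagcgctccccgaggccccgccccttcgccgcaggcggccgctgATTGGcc
In Kif11 the ATTGG starts 45 bases and the TTCAAA 19 bases before the RefSeq start used for the window. In Kif23 the ATTGG starts 7 bases before the start used for the window and belongs to a CTGATTGG, the longer core of the Y box after which Ybx1 was named. RefSeq's Kif23 gene extends to 61946810, so the last bases of this window, the ATTGG among them, lie within the annotated gene. Of 11 mitotic windows 7 hold CCAAT on either strand, 63.6%, against 37.5% of 16 transport windows and 33.8% of all. CTGATTGG or its reverse complement occurs in 2 mitotic windows, in none of the transport ones and in 3.83% of all. TTTGAA occurs on either strand in 45.5% of mitotic, 6.25% of transport and 16.0% of all windows. The table held windows for 34 of the 42 genes.

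Mitosis genes outside the kinesins were set beside them. Of 20 listed, Racgap1 (log2 fold change 0.06, edgeR adjusted p 0.837) and Birc5 (0.17, 0.557) had the highest TPM. The log2 fold change was positive in 15 of the 20, against 51.4% of all genes, and the median was 0.07. None was called in either fit, with DESeq2 or with limma-voom. Before adjustment 0 had an edgeR p under 0.05 without the block, and 3 with it. Over all 14338 genes tested, 1538 had such a p without the block and 2680 with it. In 12 of the 20 the ratio was above 0 in all 3 numbers, against 19.6% of all genes. Their summed TPM was 518 to 546 in cKO and 486 to 502 in Ctrl.

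Genes that work with the transport kinesins were set beside them. Of 27 genes of dynein, the motor for the return journey toward the cell body, and its cofactor dynactin, none was called without the block (1 had an edgeR p under 0.05 before adjustment). With it Actr1a, which forms the filament of dynactin, was called lower, with 394, 359 and 358 CPM in cKO against 461, 419 and 438 CPM in Ctrl (log2 fold change -0.25, edgeR adjusted p 0.215; 0.00386 with the block). Of 25 cargo adaptors and regulators of kinesin none was called without the block (3 had an edgeR p under 0.05 before adjustment), and Clstn2, a calsyntenin of the family that links cargo to the light chains, was called lower with it (-0.26, edgeR adjusted p 0.393; 0.0182 with the block). Of all 14338 genes tested, 1538 had an edgeR p under 0.05 before adjustment without the block. The median log2 fold change was -0.02 for dynein and dynactin and -0.004 for the adaptors. DESeq2 and limma-voom called 0 in either list. The 1 gene called lower with the block in each list is a share near the 3.56% of all genes called lower in that fit. A further list held 5 genes outside the name rule, kinesins and proteins that work with them. Of these, 2 were called with the block, against 5.33% of all genes. None was called without it (2 had an edgeR p under 0.05 before adjustment). Kifap3 was lower, as above. The minus-end motor Kifc3, whose counting may be uncertain, was higher, with 26.8, 28.4 and 32.8 CPM in cKO against 24.2, 23.3 and 24.3 CPM in Ctrl, groups that did not overlap (log2 fold change 0.29, edgeR adjusted p 0.220; 0.0302 with the block).

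Markers of cell types were set beside these results. A positive log2 fold change was found in 51.4% of all genes tested. Of all 14338 genes tested, 3.56% were called lower and 1.76% higher with the block, and 0.37% and 0.112% without it. Before adjustment, 1538 of them had an edgeR p under 0.05 without the block. The 8 sensory neuron markers summed to 9448, 10415 and 10233 TPM in cKO and 10073, 10255 and 9991 TPM in Ctrl, overlapping sums. Their log2 fold changes were positive for 3 and negative for 5, with a median of -0.06. With the block 2 of the 8, Isl1 and Stmn2, were called lower (log2 fold changes -0.22 and -0.19, edgeR adjusted p 0.00833 and 0.00858). None was called without it, where Isl1 and Stmn2 both had an edgeR p under 0.05 before adjustment. The 8 markers of Schwann and satellite glia summed to 2482 to 2518 TPM in cKO and 2351 to 2390 TPM in Ctrl, and all 8 log2 fold changes were positive. With the block 5 of the 8 were called higher, and without it none, where 5 had an edgeR p under 0.05 before adjustment. Macrophage markers summed to 159, 116 and 111 TPM in cKO and 91.6, 89.1 and 103 TPM in Ctrl, without overlap. All 5 log2 fold changes lay between 0.43 and 0.50, but the median log2 ratio was 0.88, 0.37 and 0.12 in numbers 1, 2 and 3. With the block 1 of the 5 was called higher, and without it none, where 4 had an edgeR p under 0.05 before adjustment. Erythroid markers summed to 12196 to 45857 TPM in cKO and 13903 to 21580 TPM in Ctrl, and mesenchyme, endothelial and skeletal muscle sums overlapped too. No listed marker was at 0 in all libraries. Spinal cord markers summed to 0.57, 0.68 and 2.17 TPM in cKO and 0.13, 0.33 and 0.19 TPM in Ctrl. The 1 tested, Pax6, was called higher in both fits (log2 fold change 2.12, edgeR adjusted p 0.0449 without the block) but not with DESeq2. Pax6 had few counts, 12.9, 18.1 and 15.1 in cKO and 2.52, 2.59 and 3.8 in Ctrl. The part of these markers in the differences of Kif21b, Kif5a, Kif3a and Kif26a was not tested.

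Counting may be uncertain for some genes. In 7 of the 42 (Kif20a, Kifc1, Kif4, Kif2a, Klc1, Kif5b and Klc3) the deposited counts were fractional, as estimates are when reads fit more than 1 gene, and 9 overlap another protein-coding gene in GENCODE M21, among them Klc1, Kif20a and Kif2a. The sources used here do not say whether counting used strand. Kif21b, Kif5a, Kif3a and Kif26a had whole counts in every library and overlap no other annotated gene.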

How the data were processed

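Per the labels' protocols, RNA was extracted with Trizol and libraries made with an mRNA kit. Per the submitters' processing notes, the tools named are HISAT2 2.2.1, Bowtie2 2.4.5 and RSEM 1.3.1, and the build is GRCm38 (mm10); role and order are not given. For each gene and library the authors deposited an estimated count without normalization, whole for 88.4% to 88.6% of genes, and a TPM value, used here for levels and shares.

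Counts were rounded and filtered with filterByExpr, leaving 14338 of 17971 genes. cKO was compared with Ctrl with edgeR 4.0.16 (robust quasi-likelihood F test; R 4.3.3; TMM scaling, two-sided, Benjamini-Hochberg over all tested genes, threshold 0.05) and tested on simulated data. Each SE is the log2 fold change over the root of F. CPM use TMM library sizes. Log2 ratios within a number use CPM with a prior count of 2. Depth was 16464264 to 17446385 counts. Without the block, p-values rest on the spread between 3 libraries per group. With it they rest on the spread left after the replicate number is fitted.

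Titles number replicates 1 to 3 in both groups, sample codes of equal numbers begin alike, and controls are littermates. The deviations from group means of libraries with equal numbers had correlations of 0.328, 0.205 and 0.184, so the numbers were taken to pair the samples. Blocked values are given where they change a call.

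The members and lists were chosen with earlier results of these data known. Named were members called in either fit, all mitotic genes, transport genes averaging at least 5 TPM, and, per other list, called genes or else the most expressed. Genes named beside these, such as Kif17 and the remaining other kinesins, were named after their values were seen. All 42 members matched the RefSeq table of GRCm38.p6. Alternatives were DESeq2 1.42.0, limma-voom (limma 3.58.1), other scalings and filters, the block, a length offset and leaving out libraries. Figures used matplotlib 3.10.9.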

Additional observations from a re-analysis of the deposited data

How the results depend on the processing

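The calls of kinesin genes rest on few libraries and on the block. Without the block 2 passed, and the same 2 (Kif21b and Kif26a) with DESeq2 size factors, the DESeq2 test, limma-voom and both other filters; with library totals 1 passed, Kif26a. Leaving out 1 library gave 0 to 2 called kinesin genes, and the blocked fit without the pair numbered 1, 2 or 3 gave 5, 3 and 4; 0 passed when replicate 2 of cKO, or of Ctrl, or replicate 3 of Ctrl was left out, where 1208, 1077 and 1151 genes had an edgeR p under 0.05 before adjustment. With the replicate block 4 passed, 4 also with the length offset, 3 with library totals, and without both libraries numbered 1 and without the block 4. In the blocked fits Kif26a, Kif21b and Kif5a passed in all 6 settings tried; Kif3a failed in 3 of them. The direction of these 4 was the same in every setting.

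Over all genes 69 passed, 44 with library totals, 183 with DESeq2, 128 with any count, 764 with the replicate block, 799 with the block and library totals, 758 with the block and length offset, and 731 without both libraries numbered 1. Scaling moved the split: 16 higher and 53 lower became 16 and 28 with library totals, and with the block 253 higher and 511 lower became 396 and 403. Leaving out single libraries gave 18 to 104, and the blocked fit without numbers 1, 2 or 3 gave 1252, 260 and 836. The transport median was -0.03, with a range of -0.121 to 0.0178 on leaving out libraries, the mitotic median 0.09 (0.063 to 0.129; 0.135 with the block and without number 2) and that of the other kinesins 0.03 (-0.0165 to 0.14; -0.0183 with the block and without number 3), so the sign of the first and the last depends on the libraries; with library totals the transport median was -0.01. Library totals moved the median of all genes to 0.03. Single calls of Kif1a and Kif5b appeared in blocked fits without the libraries numbered 3 and 1. With 3 libraries per group, small changes in genes of low counts, such as Kif17 and Kif6, were not detectable at this depth.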
